A study of Mus musculus with 4 samples.

Results

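The unfolded protein response and its ATF4 branch were followed in a mouse T-cell lymphoma line through 35 genes, named by symbol and not by their values. Each gene was represented by the probe set that names it alone and has the highest mean over the 4 arrays, and all 35 had such a probe set among 18193 genes in the series. For 34 of them the mean reached the testing floor, a log2 value of 4.81, and these were tested among 11581 genes. The stress factor gene Atf3 lay below the floor, at 3.91 and 3.96 with 4OHT against 3.97 and 4.18 with ethanol, and was not tested. The members and the lists below were chosen with earlier results of these data known.

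The study asked which genes Notch regulates. The cells were T29, a thymic lymphoma cell line that the series' design text describes as Ikaros-deficient, transduced with MigR1-MLER, an inducible dominant-negative form of the Notch co-activator Mastermind. The tested cells received 100 nM 4OHT for 24 h (2 arrays), and their controls received ethanol for 24 h (2 arrays). 4OHT is a tamoxifen metabolite that binds oestrogen receptor fusions. All 4 samples came from 1 line and carried the construct, and no cells without it were analysed here, so an effect of 4OHT alone and an effect of the construct cannot be told apart. The labels name no separate cultures for the replicates, so each p-value reflects the spread among these 4 arrays alone, which may be technical.

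When unfolded proteins build up in the endoplasmic reticulum (ER), 3 membrane sensors respond. PERK, the product of Eif2ak3, phosphorylates the initiation factor eIF2alpha, which slows translation but favours that of ATF4. IRE1, the product of Ern1, splices the Xbp1 mRNA, and ATF6 is cut to release a transcription factor. ATF6 and spliced XBP1 raise chaperone and degradation genes, often through a promoter element called ERSE. ATF4 raises genes of amino acid supply and stress through an element called CARE, and it also answers kinases that sense amino acid shortage, so its targets can move without ER stress. In lymphoblastic leukaemia this branch is known for asparagine synthetase, whose level bears on treatment with asparaginase.

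RefSeq promoters (GRCm38.p6, 250 bases before to 50 after the start) were found for 31 of the 35 genes and were searched on both strands. ERSE, which is CCAAT and CCACG with 9 bases between them, lay in 8 of the 31 (25.8%), against 37 of all 27025 genes with a promoter in the table (0.137%). Those 8 were 7 of 12 chaperone and folding genes (Hspa5, Hsp90b1, Pdia6, Calr, Canx, Dnajc3 and Creld2) and Syvn1. Its variant ERSE-II, ATTGG and CCACG with 1 base between them, lay in Herpud1 and Dnajb11 and in 0.0444% of all genes. CARE, written TGATGNAAN, lay in 6 members (19.4%), namely Atf3, Chac1, Trib3, Asns, Nupr1 and Herpud1, against 4.5% of all genes. The XBP1 element TGACGTGG lay in none of the 31 and in 0.714% of all genes. GTGGGAA, the motif of the Notch partner RBPJ, lay in Pdia3 and Asns (6.45%), against 7.25% of all genes. None of these matches overlapped another. A match is a description of letters and not evidence of binding. Shown here are 4 CARE promoters of genes with large differences below and that of Hspa5, the classic ERSE gene, each on the strand of its gene, with the matched element in capitals on whichever strand it was read.
Chac1, chr2:119351042-119351241, plus strand, positions -200 to -1, CARE on the opposite strand: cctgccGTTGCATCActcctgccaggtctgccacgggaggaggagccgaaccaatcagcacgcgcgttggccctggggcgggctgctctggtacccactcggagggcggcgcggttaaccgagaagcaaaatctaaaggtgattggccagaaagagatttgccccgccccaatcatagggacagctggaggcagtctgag
Asns, chr6:7693210-7693409, minus strand, positions -200 to -1, CARE on the gene's strand: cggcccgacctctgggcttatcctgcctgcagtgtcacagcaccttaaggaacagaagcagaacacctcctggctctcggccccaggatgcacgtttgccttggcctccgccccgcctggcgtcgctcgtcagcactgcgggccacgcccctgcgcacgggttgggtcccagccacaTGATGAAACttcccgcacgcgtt
Nupr1, chr7:126625471-126625670, minus strand, positions -200 to -1, CARE on the opposite strand: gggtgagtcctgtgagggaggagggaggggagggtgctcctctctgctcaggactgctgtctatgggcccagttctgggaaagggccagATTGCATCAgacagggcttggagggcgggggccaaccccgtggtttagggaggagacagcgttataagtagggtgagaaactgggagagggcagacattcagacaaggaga
Trib3, chr2:152344028-152344057, minus strand, positions 4 to 33, CARE on the opposite strand: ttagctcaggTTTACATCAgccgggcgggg
Hspa5, chr2:34771890-34772089, plus strand, positions -200 to -1, ERSE on the gene's strand: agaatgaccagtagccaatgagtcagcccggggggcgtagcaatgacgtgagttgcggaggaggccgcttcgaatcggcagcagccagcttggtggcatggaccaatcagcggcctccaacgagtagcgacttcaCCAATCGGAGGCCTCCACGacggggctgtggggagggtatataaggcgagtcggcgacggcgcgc

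The arrays were alike in scale, with medians from 5.12 to 5.14. Of 8 T-lineage markers with a probe set, all lay above the testing floor (1 called higher and 2 lower with 4OHT). Plasma cells have a strongly developed ER, and of the B-cell and plasma-cell markers 2 of 8 lay above the floor. These were Sdc1, the highest of the 8, at 7.78 to 8.37 over the 4 arrays, and Pax5, at 5.29 to 5.42. Jchain, Prdm1, Cd79a and Cd79b were among the 6 below the floor. The log2 of the summed level of all 8 was 8.43 to 8.64 with 4OHT and 8.59 to 8.87 with ethanol. Sdc1 gave the largest part of that sum. Of the myeloid markers 2 of 7, and of the stromal, epithelial and endothelial markers 2 of 7, reached the floor. Ethanol replicate 1 stood apart in 18S ribosomal RNA, with a 5′ probe set at 8.02, and 6.35 to 6.78 on the other arrays. Its 3′ minus 5′ difference for 18S was 0.05, and 0.32 to 0.90 on the others, and its transferrin receptor 5′ probe set read 8.27, and 6.99 to 7.33 on the others. The deposited values give no detection calls, and the number of arrays limits the precision.

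**Figure D1:**
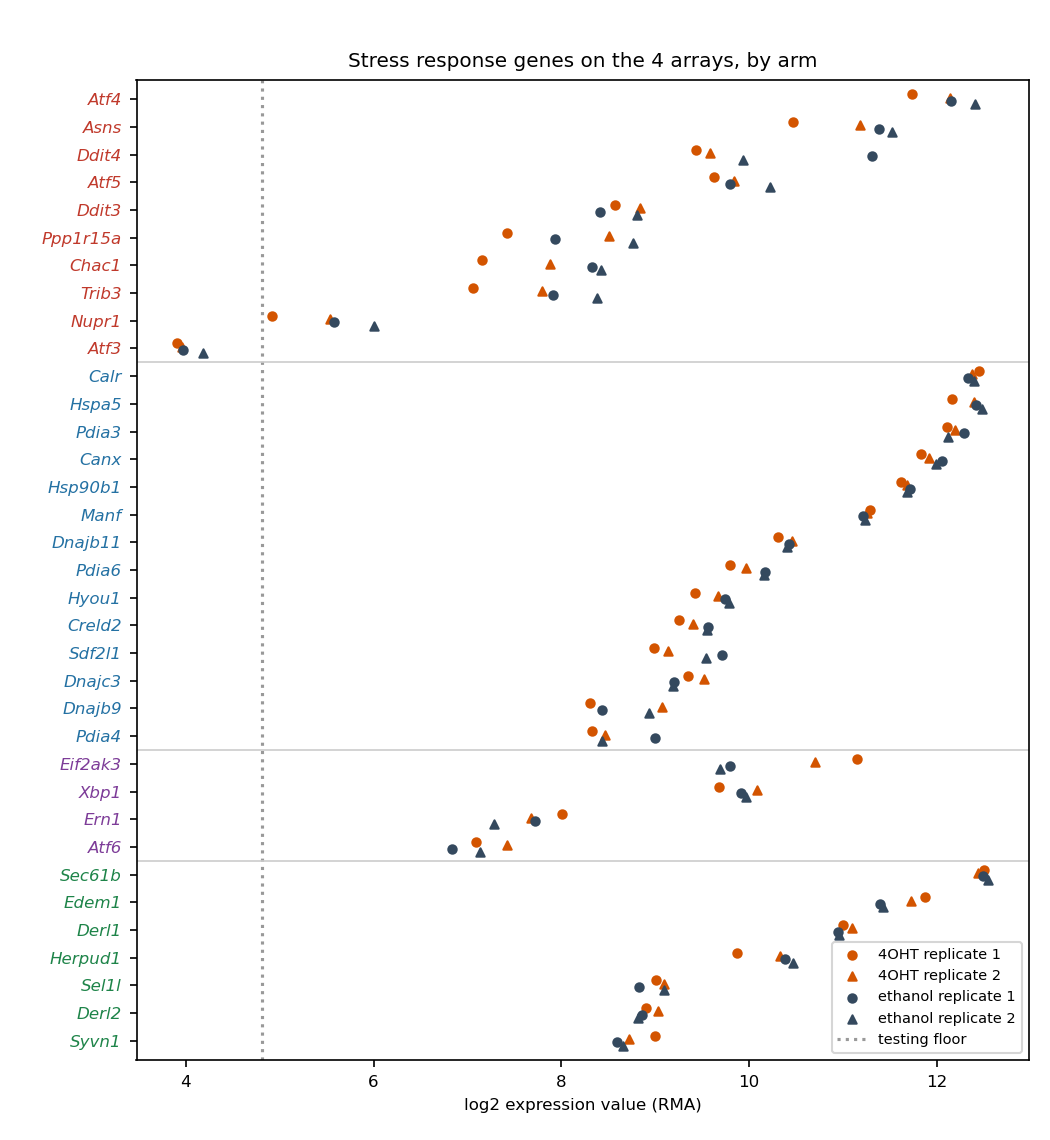
Log2 expression value (x axis) of the 35 genes on each of the 4 arrays, grouped from top to bottom as ATF4 and CHOP arm (red names), ER chaperones and folding enzymes (blue), sensors and Xbp1 (purple) and degradation and translocon genes (green). Orange marks are 4OHT arrays and dark marks ethanol arrays, with circles for replicate 1 and triangles for replicate 2, and the dotted line is the testing floor at 4.81, which only Atf3 lies below.

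With 4OHT, 1 of the 34 tested members rose and 1 fell, and 32 did not pass the test. Over all 11581 genes 7.47% passed in either direction (3.9% higher and 3.57% lower), so 2 calls among 34 members were near the background share. The 2 called genes were Eif2ak3, the PERK sensor, which was 2.27-fold higher, and Sdf2l1, an ER chaperone partner, which was 1.48-fold lower. The median log2 difference of the members was -0.05, and that of all genes -0.01. Both 4OHT arrays lay below both ethanol arrays for 13 members and above them for 7, where 30.2% and 26.7% of all genes did so (56.9% without overlap in either direction). Calls are limma adjusted p-values under 0.05 with Benjamini-Hochberg adjustment over all genes, and differences are on the log2 scale with limma's standard error (SE). In bulk RNA, fewer cells of a kind and less RNA per cell cannot be told apart.

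Among the sensors, Eif2ak3 read 11.15 and 10.70 on the 4OHT arrays, against 9.80 and 9.69 on the ethanol arrays. Both 4OHT values were above both ethanol values by more than the spread within either group. The means were 10.92 ± 0.32 with 4OHT and 9.74 ± 0.08 with ethanol (SD, n = 2 each). The difference was 1.18 ± 0.16 (SE, adjusted p = 0.0226), with a 95% interval of 0.78 to 1.59. Its other 2 probe sets gave 1.21 and 0.86, at lower levels. The call was lost without 4OHT replicate 1 (adjusted p = 0.0824), without ethanol replicate 1 (0.0776) and without ethanol replicate 2 (0.0746), in fits with 1 residual degree of freedom that take the lone array of a group to vary like the others, and the difference stayed between 0.96 and 1.41.

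Ern1, the IRE1 sensor, read 8.01 and 7.68 with 4OHT, against 7.71 and 7.28 with ethanol, and the groups overlapped (difference 0.34 ± 0.18, adjusted p = 0.307). Atf6 read 7.09 and 7.43 with 4OHT, against 6.84 and 7.13 with ethanol, also with overlap (0.27 ± 0.16, adjusted p = 0.338). Xbp1, whose transcript IRE1 splices, read 9.68 and 10.08 with 4OHT, against 9.91 and 9.96 with ethanol. Its difference was -0.06 with a 95% interval from -0.43 to 0.32. The probe sets are not known here to separate spliced from unspliced Xbp1, so its splicing was not measured. The call for Eif2ak3 beside no call for the other sensors does not show that they differ, since that difference was not tested.

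In the ATF4 and CHOP arm, 8 of 9 tested genes had a difference below 0, as had 52.3% of all genes, and none passed the test. At an unadjusted p under 0.05, 4 were lower and 0 higher, against 1532 lower and 1426 higher among all 11581 genes. The median difference was -0.56, against -0.01 for all genes. For 6 of the 9 both 4OHT arrays lay below both ethanol arrays, where 30.2% of all genes did. With the replicate number as a block in the fit, Ddit4, Chac1, Trib3, Asns, Nupr1, Ppp1r15a and Atf4 passed as lower. In that fit 1031 of all genes were lower, against 413 without the block. The labels do not say that replicate numbers pair the samples. The spread was wide within 1 or both groups for several genes of this arm, as the replicate values below show.

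Chac1, an enzyme that breaks down glutathione, read 7.16 and 7.88 with 4OHT, against 8.33 and 8.42 with ethanol. The groups did not overlap, and the difference was -0.85 ± 0.23 (adjusted p = 0.0922). Trib3, a pseudokinase induced by ATF4 and CHOP, read 7.06 and 7.79 with 4OHT, against 7.91 and 8.38 with ethanol (-0.72 ± 0.27, adjusted p = 0.179). Its 4OHT replicate 2 and ethanol replicate 1 were close to each other. Asns, asparagine synthetase, read 10.47 and 11.18 with 4OHT, against 11.39 and 11.52 with ethanol (-0.63 ± 0.23, adjusted p = 0.171). Nupr1, a small stress-induced nuclear protein gene, read 4.92 and 5.54 with 4OHT, against 5.58 and 6.01 with ethanol, with its lowest value close to the floor (-0.56 ± 0.24, adjusted p = 0.217). All 4 of these genes carry the CARE letters printed above, and were chosen for printing because they do. In the rest of the arm Atf3 carries these letters within the bases searched, and Ddit4, Atf4, Atf5, Ddit3 and Ppp1r15a do not. Sites beyond 250 bases before or 50 after the start were not looked for. A link between the letters and the differences was not tested. The second probe sets of Trib3, Asns and Nupr1 gave -0.99, -0.65 and -0.69.

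Ddit4, an inhibitor of mTORC1 signalling, had the lowest difference of the arm, -1.11 ± 0.42 (adjusted p = 0.18). It read 9.44 and 9.59 with 4OHT, against 11.31 and 9.94 with ethanol. The high value was that of ethanol replicate 1 alone, the array that stood apart in 18S, whose part in this result was not tested. Without that array the difference was -0.42. Without ethanol replicate 2 it was -1.79, and without 4OHT replicate 1 or 2 it was -1.03 or -1.18. The difference of Chac1 was -0.49 or -1.22 without 4OHT replicate 1 or 2, and -0.90 or -0.81 without ethanol replicate 1 or 2. Each of these fits leaves a lone array in a group and takes it to vary like the others.

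Atf4 itself, the translationally controlled factor of this arm, read 11.73 and 12.14 with 4OHT, against 12.15 and 12.41 with ethanol (-0.34 ± 0.17, adjusted p = 0.269). The highest 4OHT value and the lowest ethanol value were almost equal. Atf5, a related factor, had a difference of -0.27 and overlapping groups. Ddit3, which encodes CHOP, read 8.57 and 8.83 with 4OHT, against 8.41 and 8.81 with ethanol, and was the 1 member of the arm with a difference above 0 (0.09 ± 0.16, adjusted p = 0.771). Its second probe set, at a lower level, gave -0.34. Ppp1r15a, the phosphatase subunit GADD34 that reverses the PERK signal, read 7.43 and 8.51 with 4OHT, against 7.94 and 8.76 with ethanol, so that replicates differed more than treatments (-0.38 ± 0.42, adjusted p = 0.612).

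**Figure D2:**
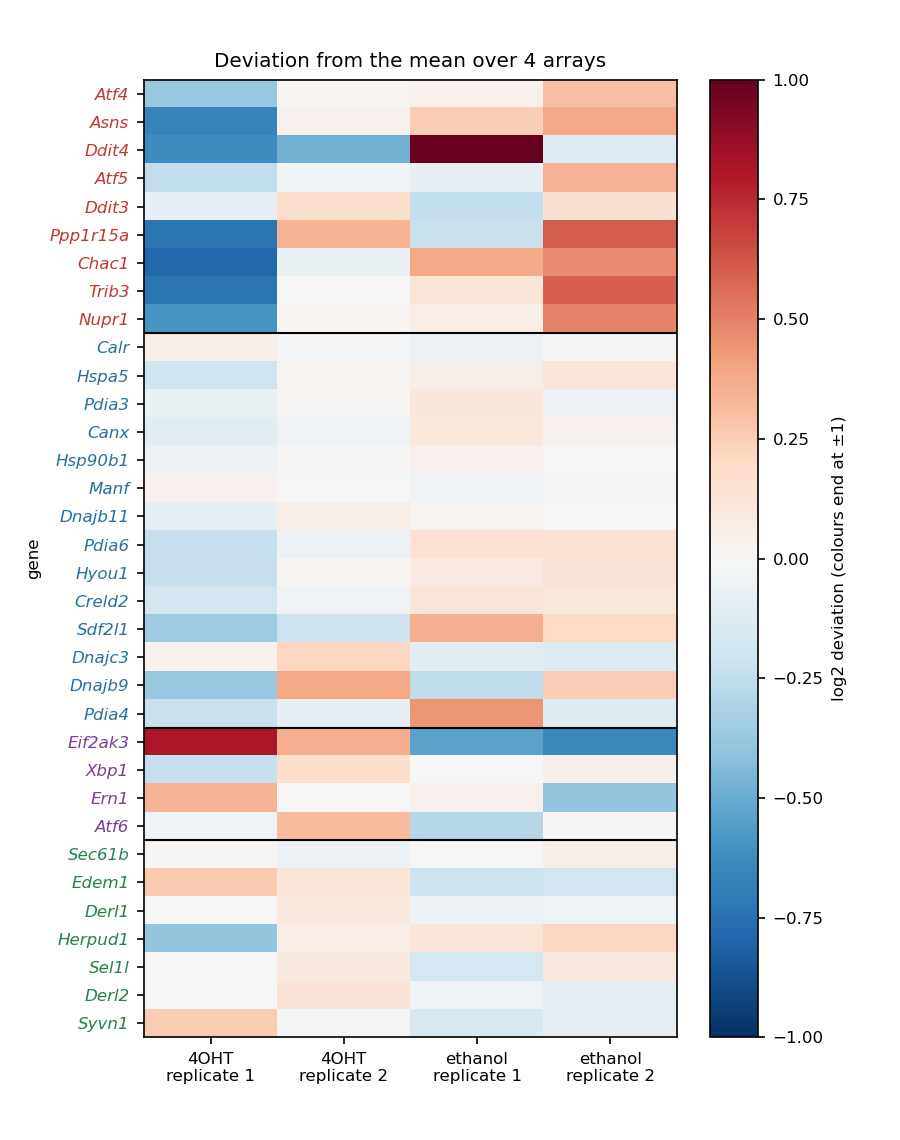
Log2 deviation of each of the 34 tested genes (rows) from its own mean over 4 arrays, for the 2 4OHT arrays and the 2 ethanol arrays (columns), with names coloured by group as in the plot of levels. Most ATF4-arm genes are lowest on 4OHT replicate 1 and highest on ethanol replicate 2, most chaperone rows are paler, with Dnajb9, Sdf2l1 and Pdia4 as exceptions, and Ddit4 on ethanol replicate 1 lies beyond the end of the colour scale.

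Among ER chaperones and folding enzymes, 1 of 14 genes fell, none rose and 13 did not pass. Of all genes 3.57% were called lower and 3.9% higher. The median difference was -0.10. Sdf2l1, which works with BiP and its co-chaperones, read 8.99 and 9.14 with 4OHT, against 9.71 and 9.55 with ethanol. The groups were well apart relative to their spread, with means of 9.07 ± 0.10 with 4OHT and 9.63 ± 0.12 with ethanol (SD, n = 2 each). It fell by 0.56 on the log2 scale (SE 0.11, adjusted p = 0.0386). That call was lost whichever array was left out (without 4OHT replicate 1 or 2, adjusted p = 0.174 or 0.106, and without ethanol replicate 1 or 2, 0.147 or 0.0862), with differences from -0.64 to -0.48.

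Hspa5, which encodes the master chaperone BiP, read 12.16 and 12.39 with 4OHT, against 12.42 and 12.48 with ethanol. The difference was -0.17 (adjusted p = 0.372), with a 95% interval from -0.45 to 0.10. Hsp90b1, the ER form of Hsp90, had a difference of -0.05 (95% interval -0.26 to 0.17) and overlapping groups. These intervals bound the change of both chaperones to under 1.5-fold in either direction within this fit. Of the lectin chaperones, Calr differed by 0.05 with overlap and Canx by -0.15 without it.

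The protein disulfide isomerase genes had differences of -0.05 (Pdia3), -0.32 (Pdia4) and -0.28 (Pdia6). Pdia6 read 9.79 and 9.96 with 4OHT, against 10.17 and 10.16 with ethanol (adjusted p = 0.146). In Pdia4, ethanol replicate 1, the array apart in 18S, was high, at 8.99, with 8.43 for ethanol replicate 2. Hyou1, a nucleotide exchange factor for BiP, and Creld2, a secreted stress protein gene, differed by -0.21 and -0.23, both with all 4OHT values below all ethanol values. Manf, a secreted stress-induced factor, differed by 0.05.

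The J-domain co-chaperones of BiP did not share a direction. Dnajc3 read 9.34 and 9.52 with 4OHT, against 9.20 and 9.18 with ethanol (0.24 ± 0.10, adjusted p = 0.2), and all 5 of its probe sets gave differences above 0, from 0.24 to 0.37. Dnajb11 differed by -0.03. Dnajb9, an XBP1 target, read 8.31 and 9.07 with 4OHT, against 8.43 and 8.93 with ethanol. Its treatment difference was 0.01 with an SE of 0.29, since the replicates lay far apart.

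Of the 7 genes for ER-associated degradation and translocation, none passed the test (at an unadjusted p under 0.05, 1 was higher and 0 were lower), and the median difference was 0.09. Among all 11581 genes, 1426 were higher and 1532 lower at that unadjusted p. Edem1, a lectin that marks misfolded glycoproteins, came closest to the threshold among the members that missed it. It read 11.87 and 11.73 with 4OHT, against 11.40 and 11.42 with ethanol, 1.31-fold apart (0.39 ± 0.09, adjusted p = 0.0682). Its second probe set gave 0.31. Edem1 passed with an intensity trend in the variance (adjusted p = 0.0186) and with a stricter filter at the 60th percentile (adjusted p = 0.0465). It did not pass with no filter (0.0974), quantile normalization (0.0646) or median centring (0.0705). Nor did it pass with the mean of its probe sets (0.0733) or without cross-hybridising probe sets (0.0724). With 1 array left out its difference stayed between 0.32 and 0.46.

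Syvn1, the HRD1 ubiquitin ligase, differed by 0.23, Derl1 by 0.09 and Derl2 by 0.13, each with both 4OHT arrays above both ethanol arrays. Sel1l, the partner of HRD1, differed by 0.09, and Sec61b, a subunit of the translocon, by -0.05, both with overlap. Herpud1, which carries both ERSE-II and CARE letters, read 9.87 and 10.33 with 4OHT, against 10.38 and 10.47 with ethanol (-0.33 ± 0.16, adjusted p = 0.278). Over all members, 44 further probe sets were present, and 5 of them, in Ddit3, Pdia4, Pdia6, Ern1 and Derl1, had a treatment difference of the opposite sign to the probe set used.

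**Figure D3:**
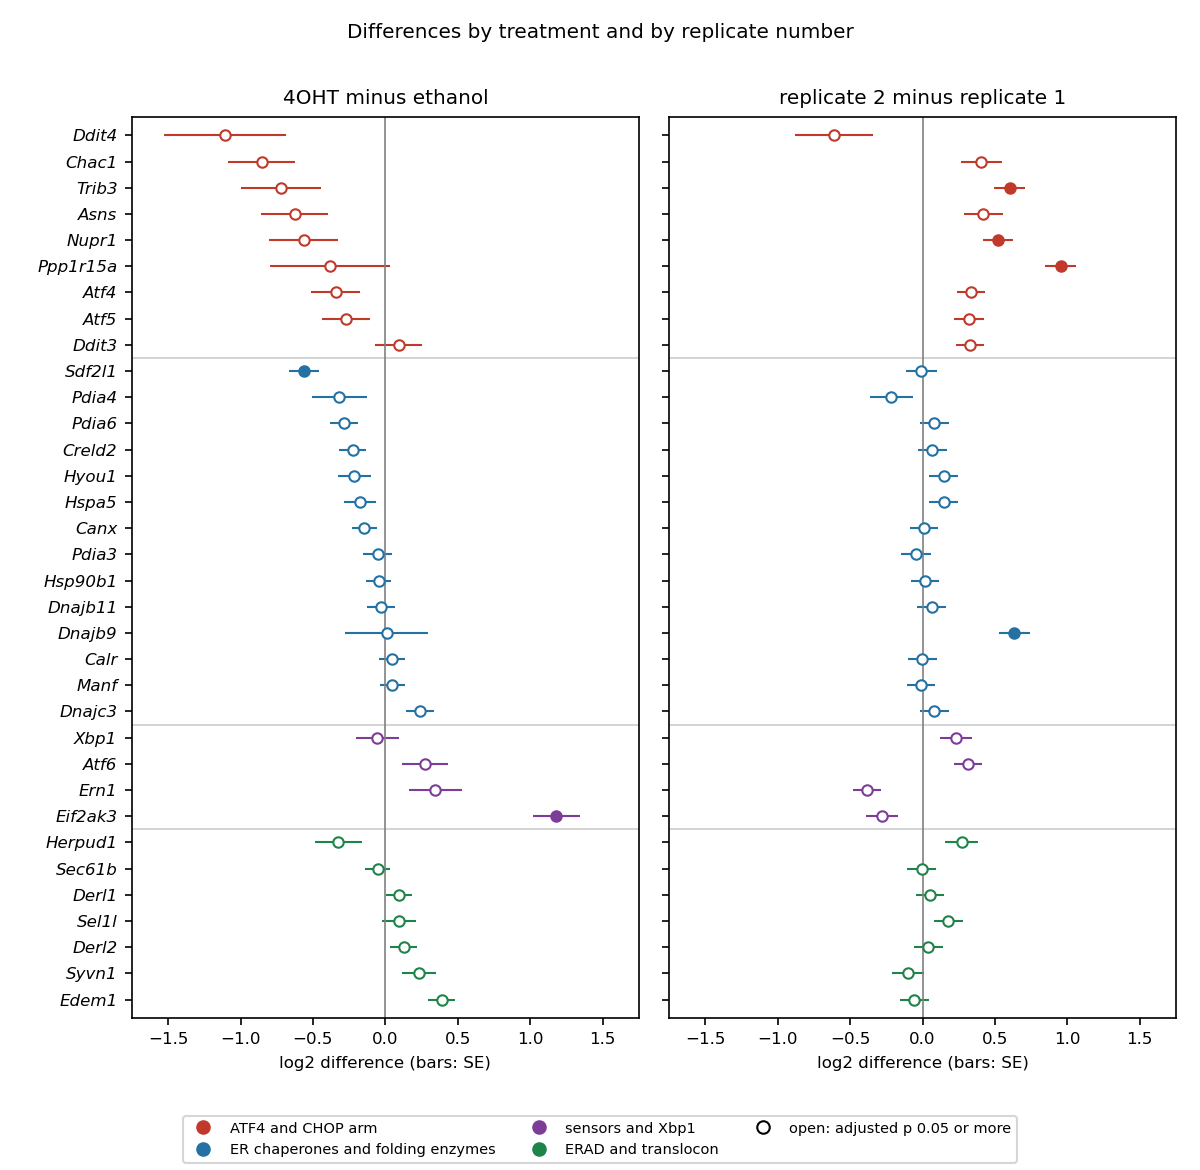
Log2 differences of the 34 tested genes, with limma's SE as bars, for 4OHT minus ethanol (left) and replicate 2 minus replicate 1 (right); filled points have an adjusted p under 0.05. On the left only Eif2ak3 (1.18) and Sdf2l1 (-0.56) are filled, and on the right Ppp1r15a (0.95), Dnajb9 (0.63), Trib3 (0.60) and Nupr1 (0.52). The left panel is from a fit without replicate number and the right from a fit with treatment and replicate number. Bars and fills are therefore not comparable between the panels. By treatment, the fit with both terms called 3 members higher and 8 lower. Among all 11581 genes it called 1104 higher and 1031 lower, against 452 and 413 without replicate number.

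The same genes were then compared by replicate number, replicate 2 minus replicate 1, in a fit with treatment and replicate number as terms. The sources used here do not say what the number stands for. This fit has 1 residual degree of freedom, so its SE leans on the variance shared over all genes. In replicate 2, 4 of 34 members were higher and 0 lower. Before adjustment, 11 were higher and 3 lower at p under 0.05, against 880 higher and 519 lower among all 11581 genes. Over all genes 1.3% passed, 0.907% higher and 0.389% lower. Replicate 2 exceeded replicate 1 under both treatments for 16 members, where 32.3% of all genes did so, and the difference was above 0 for 23 members and 55.6% of all genes. The number of calls varied with the processing. With each array centred on its median, the members called higher dropped to 1, Ppp1r15a. All genes called higher dropped to 38, against 105 without centring. The differences hardly moved with centring, from 0.602 to 0.607 for Trib3 and from 0.952 to 0.958 for Ppp1r15a. Quantile normalization, which also rescales the arrays, kept 4 members and 116 of all genes called higher.

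The ATF4 and CHOP arm held 3 of the 4 calls, where 0.907% of all genes were called higher. Of its 9 tested genes, 8 were higher in replicate 2 under both treatments, as were 32.3% of all genes, and Ddit4 was the exception. The same 8 were higher at an unadjusted p under 0.05, as were 7.6% of all genes. The median replicate difference of the arm was 0.41 (0.61 between the 4OHT arrays and 0.39 between the ethanol arrays), against 0.02 for all genes. Ppp1r15a read 8.51 with 4OHT and 8.76 with ethanol in replicate 2, against 7.43 and 7.94 in replicate 1. Both replicate 2 values were above both replicate 1 values, and the gene was 1.94-fold higher (0.95 ± 0.11, adjusted p = 0.00578). Trib3 was 1.52-fold higher (0.60 ± 0.11, adjusted p = 0.0315) and Nupr1 1.43-fold higher (0.52 ± 0.10, adjusted p = 0.0452). Both calls were lost with each array centred on its median (adjusted p = 0.066 for Trib3 and 0.0841 for Nupr1) and when probe sets marked as open to cross-hybridisation were left out (0.06 and 0.0774), and that of Nupr1 also with no filter (0.0529) and with the mean of its probe sets (0.0964). The probe sets used for Trib3 and Nupr1 were not among those left out, and their differences stayed at 0.60 and 0.52. Only the variance and the adjustment shared with other genes changed there.

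The remaining genes of the arm were 0.33 (Atf4), 0.32 (Atf5), 0.33 (Ddit3), 0.41 (Chac1) and 0.42 ± 0.14 (Asns, adjusted p = 0.231) apart by replicate number, without passing (adjusted p from 0.187 to 0.272). In Chac1 and Asns the gap was mostly between the 4OHT arrays, 0.72 and 0.71, with 0.09 and 0.13 between the ethanol arrays. Ddit4 ran the other way, at -0.61 ± 0.27 (adjusted p = 0.412), through a gap of -1.37 between the ethanol arrays beside 0.15 between the 4OHT arrays. On the 4 arrays, the median deviation of the arm from each gene's own mean was -0.63 for 4OHT replicate 1, 0.02 for 4OHT replicate 2, 0.07 for ethanol replicate 1 and 0.38 for ethanol replicate 2. The arm was thus lowest where 4OHT and replicate 1 met and highest where ethanol and replicate 2 met, while the median of all genes stayed within 0.02 of 0 on each array.

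Outside that arm, Dnajb9 was 1.55-fold higher in replicate 2 (0.63 ± 0.11, adjusted p = 0.0271), and its call was lost with median centring (adjusted p = 0.0624) and without cross-hybridising probe sets (0.0553). The probe set of Dnajb9 was not among those left out, and its difference stayed at 0.63. The other 13 chaperone and folding genes had replicate differences between -0.22 and 0.15, the lowest being Pdia4 (-0.22 ± 0.15, adjusted p = 0.652). Hspa5 differed by 0.15 (95% interval -0.08 to 0.37) and Hsp90b1 by 0.02. Among the sensors, Ern1 was lower in replicate 2 under both treatments (-0.38 ± 0.10, adjusted p = 0.119), as was Eif2ak3 (-0.28 ± 0.11, adjusted p = 0.343), while Atf6 (0.31) and Xbp1 (0.23) were on the other side. The degradation and translocon genes ranged from -0.10 ± 0.11 for Syvn1 (adjusted p = 0.822) to 0.27 for Herpud1, and none passed (at an unadjusted p under 0.05, 1 was higher and 0 were lower). Among all 11581 genes, 880 were higher and 519 lower at that unadjusted p. In 9 of the 34 members the replicate difference was larger in size than the treatment difference, where 33.6% of all genes showed this.

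**Figure D4:**
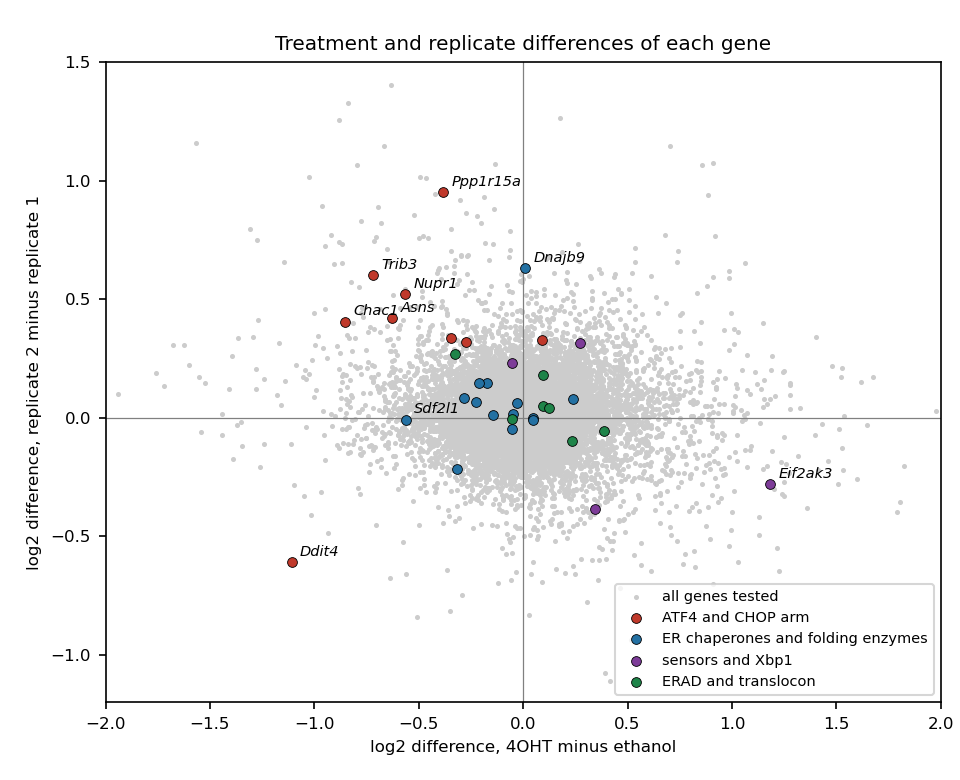
Log2 difference by treatment, 4OHT minus ethanol (x axis), and by replicate number, replicate 2 minus replicate 1 (y axis), for all 11581 genes tested (grey) and the 34 members (coloured by group); 20 genes lie outside the axes. Trib3, Chac1, Asns, Nupr1 and Ppp1r15a lie at the upper left, lower with 4OHT and higher in replicate 2, Ddit4 at the lower left, Eif2ak3 at the right, and the chaperone genes near the centre apart from Sdf2l1 and Dnajb9.

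A wider list of 77 pathway genes was read beside the members, of which 73 had a probe set and 71 were tested. By treatment, 1 rose and 2 fell, where 3.9% of all genes were higher and 3.57% lower, and the median difference was -0.10. Slc7a11, the cystine transporter gene and an ATF4 target, was called higher with 4OHT, at 9.48 and 9.73, against 8.63 and 8.56 with ethanol (1.02 ± 0.11, adjusted p = 0.0151), a sign opposite to that of 8 of the 9 tested genes of the ATF4 and CHOP arm. Pdia5, a disulfide isomerase gene, was 1.46-fold lower (-0.54 ± 0.10, adjusted p = 0.0347), and Fkbp11, an ER prolyl isomerase gene, 1.86-fold lower (-0.89 ± 0.16, adjusted p = 0.0366). With probe sets marked as open to cross-hybridisation left out, Fkbp11 was at -0.25 and did not pass (adjusted p = 0.157). All 3 calls were lost whichever array was left out (adjusted p from 0.055 to 0.159).

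Of 27 tested genes in the wider list that belong to the ATF4 targets and the integrated stress response, 1 was called higher (Slc7a11) and 0 lower by limma, while an unadjusted p under 0.05 was found for 14 lower and 3 higher genes. Among all 11581 genes, 1532 were lower and 1426 higher at that unadjusted p. A treatment difference below 0 was found for 21 of the 27, and for 52.3% of all genes, and the median of the 27 was -0.33. For 15 of the 27 both 4OHT arrays lay below both ethanol arrays, where 30.2% of all genes did so. The lowest were Stc2, a secreted glycoprotein gene, at -1.57 ± 0.52 (adjusted p = 0.136), and Cth, a cysteine-synthesis enzyme gene, at -1.31 ± 0.40 (adjusted p = 0.115). Stc2 read 5.88 and 7.38 with 4OHT, against 7.79 and 8.61 with ethanol, and so was lowest on 4OHT replicate 1 and highest on ethanol replicate 2, the array order of the ATF4 arm. Cth showed this order too, at 6.03 and 7.28 with 4OHT, against 7.79 and 8.13 with ethanol. Its difference was -0.69 or -1.94 without 4OHT replicate 1 or 2, and -1.48 or -1.14 without ethanol replicate 1 or 2. The 44 tested genes of ER folding, secretion and degradation had a median of 0.01, and Wfs1, an ER membrane protein gene, had their largest positive difference (0.99 ± 0.26, adjusted p = 0.0861).

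By replicate number, 6 genes of the wider list were higher in replicate 2 and 0 lower, where 0.907% of all genes were higher and 0.389% lower. Before adjustment, 17 were higher and 1 was lower at p under 0.05, against 880 higher and 519 lower among all 11581 genes. The 6 called genes were Stc2 (1.16 ± 0.15, adjusted p = 0.0107), the bZIP factor gene Cebpb (0.94 ± 0.10, adjusted p = 0.00548), the COPII coat gene Sec24d (0.79 ± 0.13, adjusted p = 0.0254), the ER oxidase gene Ero1a (0.77 ± 0.12, adjusted p = 0.0214), the stress-responsive gene Ndrg1 (0.67 ± 0.11, adjusted p = 0.0264) and the ER retrieval receptor gene Kdelr3 (0.63 ± 0.10, adjusted p = 0.0251). Stc2 and Cebpb kept their calls with median centring, and the other 4 lost them (adjusted p from 0.0552 to 0.0637). The largest negative replicate differences were those of Wfs1 (-0.54 ± 0.12, adjusted p = 0.0779) and Serp1, a translocon-associated gene (-0.24 ± 0.11, adjusted p = 0.433).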

How the data were processed

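Gene expression was measured on 4 Affymetrix mouse arrays, 2 per treatment. The authors summarised each probe set with RMA and deposited log2 values, per the submitters' processing notes; the sources used here do not give its version, and the log2 scale was read from the values. RMA equalises signal distributions over arrays and gives no detection call.

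The 45101 probe sets were named through the platform annotation, and 34945 named 1 gene. All 35 member symbols matched RefSeq. The testing floor was the 40th percentile of the probe sets naming 1 gene. Fits used limma 3.58.1 in R 4.3.3 and were tested on simulated data. The members, lists and alternatives were chosen with earlier results of these data known. Every member is named. Those called in either comparison and the 5 largest differences in each direction are given with error and adjusted p, as are wider-list genes that were called or had the 2 largest differences in each direction. Wider-list names were updated through RefSeq synonyms.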

Additional observations from a re-analysis of the deposited data

How the results depend on the processing

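The labels do not say that replicate numbers pair the samples. Replicate differences in 4OHT and in ethanol had r = 0.34 across genes, which are not independent. With the replicate number as a block, 1104 genes were higher and 1031 lower with 4OHT, against 452 and 413 without it, and among members 3 were higher (Eif2ak3, Edem1 and Ern1) and 8 lower (Ddit4, Chac1, Trib3, Asns, Nupr1, Ppp1r15a, Atf4 and Sdf2l1). Stc2, Cth and Wfs1 also passed under the block.

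An intensity trend gave 663 higher and 636 lower genes, and with a robust prior 679 higher and 666 lower. At an adjusted p under 0.1, 853 were higher and 824 lower. Members called higher numbered 2 with the 60th-percentile filter, with either trend fit and at 0.1, and members called lower 2 at 0.1. Leaving out 1 array gave 9 to 125 higher and 12 to 66 lower genes, and 0 to 1 members in each direction. It moved the median difference between -0.22 and -0.012 for the members, -0.92 and -0.26 for the ATF4 arm, -0.24 and -0.036 for chaperones, 0.27 and 0.34 for sensors, and 0.05 and 0.14 for degradation genes. The sensor median was 0.25 with quantile normalization and 0.17 with the mean of probe sets.

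By replicate number, median centring gave 38 higher and 18 lower genes, leaving out cross-hybridising probe sets 48 and 21, the trend 238 and 115, the robust trend 202 and 103, and a threshold of 0.1 192 and 94, where 105 and 45 were called. The first 2 of these left 1 member called higher. Between the 4OHT arrays alone, the median was 0.15 for members, 0.61 for the ATF4 arm, 3.46e-05 for sensors and 0.092 for degradation genes. With the mean of probe sets it was 0.022 for sensors and -0.0058 for degradation genes. The sign turned for Ddit4 (0.15) and Pdia4 (0.13) between the 4OHT arrays, and for Syvn1 with the mean of probe sets (0.0053), without cross-hybridising probe sets (0.11) and between the ethanol arrays (0.068). No other sign turned among the named genes under these alternatives. The causes were not tested.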
